A study of Mus musculus with 20 samples.

Results

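The 36 genes described here encode parts of the contractile units of muscle and of the discs that join them, or proteins of their assembly and turnover. They were taken by symbol from the 29339 genes of the deposited table. They comprise titin (Ttn), 6 genes of the myosin thick filament, 2 of the M-band, 6 of the actin thin filament, 13 of the Z-disc, 5 of the intermediate filament, filamin and Xin group, and 3 genes of sarcomere assembly and protein turnover. All 36 were detected in every library.

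The table holds heart RNA from 20 C57BL/6 mice of 8 weeks, sequenced as poly-T selected paired-end libraries. By the labels, 5 libraries were from male wild type (WT) hearts, 5 from male TECRL-/- (KO) hearts, 3 from female WT hearts and 7 from female KO hearts. TECRL-/- denotes loss of trans-2,3-enoyl-CoA reductase like, a membrane protein of the endoplasmic reticulum linked to catecholaminergic polymorphic ventricular tachycardia. The library names form 2 series: S1 to S12 held 3 hearts of each group, and the WT/TKO series (WT1, WT2, TKO1 to TKO6) held no heart labelled female WT. How the knockout allele was made is not given in the sources used here, and whole-heart RNA cannot tell fewer cells of a type from less RNA per cell.

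A sarcomere is the repeating unit between neighbouring Z-discs. Myosin thick filaments, held in register at the M-band, pull on thin filaments of actin, tropomyosin and troponin that are anchored in the Z-disc by α-actinin. Titin spans from the Z-disc to the M-band and acts as a molecular spring, and calcium binding to troponin C starts each contraction. Ventricle and atrium use partly different isoforms: Myl2 and Myl3 encode the ventricular regulatory and essential myosin light chains, whereas Myl7 and Myl4 are their atrial counterparts.

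Library totals lay between 12540002 and 20038593 counts, and values are given as CPM (counts scaled to a common library size) with TMM factors unless FPKM is named. The 36 genes took 5.05% to 6.96% of all counts, lowest in S7 and highest in TKO6. Tecrl itself was at 51.9 to 122 CPM and was not lower in the libraries labelled KO, so the targeted gene does not check the genotype labels. In 6 libraries the sex-linked genes went against the label: S7, S8 and S9 (labelled male WT) had Xist and no Y-linked counts, and S4, S5 and S6 (labelled female KO) had Y-linked expression. Within the S series the genotype label and the sex-linked genes therefore run together and cannot be told apart there. The mean log2(CPM + 1) of 9 atrial genes, called the atrial level below, lay between 1.86 and 2.10 in the WT/TKO series. In the S series it was 9.22 in S7, 8.74 in S9, 8.08 in S11 and 7.50 in S12, with S10, S6 and S5 between 4.47 and 5.26 and the other 5 libraries at 2.14 to 2.61. S7 also held the adipocyte gene Cfd at 478 CPM. Skeletal muscle markers summed to 22.2 to 225 CPM, and in every library most of that sum was Myl1.

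The sequences upstream of 6 members are shown, a selection from the genes called for library series or atrial level further on. Each of these windows holds a match to a motif marked below. Among the other called genes, Myom1, Mybpc2 and Myoz2 also had such a match. Myl2, Lmod2, Csrp3 and Smpx had none at any start, nor had the other start of Flnc. Of the 36 members, 29 had a start in the RefSeq promoter table of GRCm38.p6, with 41 start sites between them, and Tcap, Myom2, Fbxo32, Cryab, Myot, Xirp1 and Nexn had no entry. Each sequence runs 5′ to 3′ along the gene's strand from 250 bases before the start and ends before the first annotated exon base. Capitals mark matches on either strand to MCAT (CATTCC, the site of TEAD factors), to the MEF2 motif or to the CArG box bound by serum response factor.

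Ttn (chr2:76982548-76982797, minus strand): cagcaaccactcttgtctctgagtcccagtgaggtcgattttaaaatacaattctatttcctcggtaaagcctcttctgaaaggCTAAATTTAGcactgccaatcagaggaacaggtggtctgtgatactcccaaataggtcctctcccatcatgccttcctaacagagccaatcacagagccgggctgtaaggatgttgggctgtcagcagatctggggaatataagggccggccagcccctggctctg

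Mybpc3 (chr2:91117894-91118143, plus strand): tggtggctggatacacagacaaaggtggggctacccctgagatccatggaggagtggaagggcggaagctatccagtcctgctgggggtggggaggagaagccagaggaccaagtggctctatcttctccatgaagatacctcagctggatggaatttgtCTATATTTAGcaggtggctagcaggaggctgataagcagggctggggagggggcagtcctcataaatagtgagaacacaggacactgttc

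Synpo2l (chr14:20668355-20668604, minus strand): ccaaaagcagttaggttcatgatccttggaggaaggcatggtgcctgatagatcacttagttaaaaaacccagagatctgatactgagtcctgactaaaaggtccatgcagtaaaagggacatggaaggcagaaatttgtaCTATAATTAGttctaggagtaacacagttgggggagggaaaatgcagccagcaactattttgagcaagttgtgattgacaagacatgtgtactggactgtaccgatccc

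Flnc (chr6:29433006-29433255, plus strand): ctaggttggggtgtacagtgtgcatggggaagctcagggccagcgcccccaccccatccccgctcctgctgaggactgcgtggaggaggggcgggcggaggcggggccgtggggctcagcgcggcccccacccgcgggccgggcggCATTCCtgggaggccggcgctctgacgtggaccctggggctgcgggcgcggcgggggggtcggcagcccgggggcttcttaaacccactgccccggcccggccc

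Pdlim3 (chr8:45885237-45885460, plus strand): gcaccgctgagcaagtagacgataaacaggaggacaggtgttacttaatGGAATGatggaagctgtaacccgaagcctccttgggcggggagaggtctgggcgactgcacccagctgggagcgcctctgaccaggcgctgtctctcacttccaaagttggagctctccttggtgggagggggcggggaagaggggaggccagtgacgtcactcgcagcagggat

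Myl3 (chr9:110763428-110763645, plus strand): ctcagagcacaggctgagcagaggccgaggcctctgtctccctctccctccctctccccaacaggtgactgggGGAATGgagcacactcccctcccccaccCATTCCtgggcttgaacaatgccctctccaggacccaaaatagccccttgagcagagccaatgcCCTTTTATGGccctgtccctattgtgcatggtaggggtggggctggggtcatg

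Ttn, Mybpc3 and Synpo2l each hold a MEF2 match, Flnc and Pdlim3 hold MCAT, and Myl3 holds MCAT on each strand and a CArG box. Over the 250 bases before all 41 starts, 17.1% held a MEF2 match and 17.1% a CArG box, against 2.92% and 1.47% of 32851 such windows of all genes. MCAT was in 26.8% of member windows and 12.6% of all windows, the GATA motif (AGATAA) in 22.0% and 9.99%, and the E-box (CANNTG) in 75.6% and 66.2%. MEF2 matches lay before Fhl2, Mybpc3, Myoz2, Synpo2l, Ttn and Xirp2, and CArG boxes before Fhl2, Ldb3, Myl3, Myom1 and Nebl. Windows of 1 gene can overlap, and these matches are a description of letters, not of bound sites.

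On the length-corrected FPKM scale the members spanned 3 orders of magnitude. Myl2, the ventricular regulatory light chain, had the highest median over all libraries, 3938 FPKM. It was followed by Tcap (telethonin, which caps titin at the Z-disc) at 2986 FPKM and Myl3 at 2917 FPKM. Next came 2 troponin genes, with 2693 FPKM for Tnni3 (inhibitory subunit) and 1968 FPKM for Tnnc1 (calcium-binding subunit). Tpm1, the α-tropomyosin gene, had 1242 FPKM, Cryab (αB-crystallin, the chaperone of desmin and titin) 987 FPKM and Tnnt2 (tropomyosin-binding subunit of troponin) 977 FPKM. Mybpc3, the cardiac myosin binding protein C, had a median of 519.6 FPKM, and Mybpc2, the fast skeletal form of the same protein, had the lowest of all members at 2.92 FPKM. From Myl2 to Tnnc1 the ranges of neighbours in this order overlapped, so their order is not fixed by these data. Ttn, whose summed exons span 116825 bases, was at 21.1 FPKM.

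The spread between libraries differed widely among the members. Tnnt2 had the narrowest range, 6389 to 9014 CPM or 1.41-fold. It was followed by 3 genes of the Z-disc list, Ldb3 (a PDZ-LIM protein that binds α-actinin) over a 1.66-fold, Nexn (nexilin, which binds actin) over a 1.72-fold and Actn2 (α-actinin, the main Z-disc crosslinker) over a 1.75-fold range. The same list also held wide ranges, such as 5.52-fold for Tcap. The widest were Synpo2l, a Z-disc actin-binding protein, at 29.4 to 495 CPM (16.9-fold), and Flnc, the muscle filamin that stabilises damaged Z-discs, at 143 to 2048 CPM (14.4-fold). Myh7b, an ancient slow myosin heavy chain, ran over an 8.62-fold range, the actin-binding Xin protein Xirp1 over a 7.64-fold range and Tmod1, which caps the pointed end of thin filaments, over a 7.15-fold range. The median SD of log2(CPM + 1) over the 20 libraries was 0.32 for the members and 0.25 for the 8205 tested genes at or above the level of the lowest member. TKO2 was the highest library for 12 members, S3 the lowest for 12 and S7 the lowest for 10. The same counts over all genes were not made, so whether this is particular to the members is not known.

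**Figure D1:**
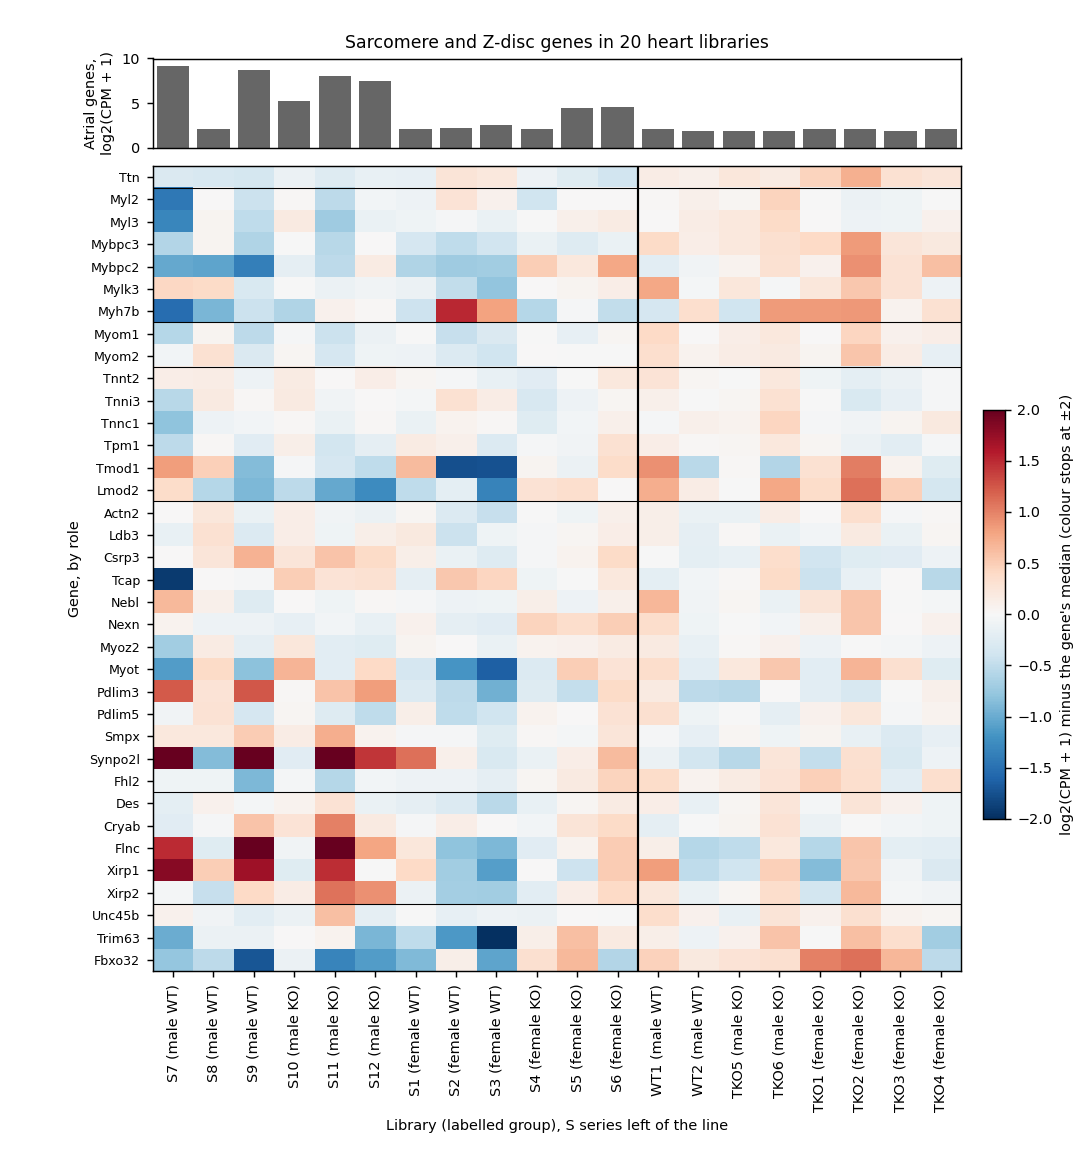
Levels of the 36 members in 20 libraries. Rows are genes grouped by role, columns are libraries grouped by series and labelled group, and colour is log2(CPM + 1) minus the gene's own median, with colours stopping at 2 units either way. The bars above give the atrial level. Synpo2l, Flnc, Xirp1 and Pdlim3 are red in S7, S9 and S11, where the bars are tall, and Mybpc3 and Ttn are red throughout the WT/TKO series right of the line.

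The first comparison asked whether loss of Tecrl moved these genes in hearts labelled male. Of the 36 genes, 0 were called at an adjusted p under 0.05 by edgeR's quasi-likelihood test with library series as covariate, where 0% of 14481 genes did. DESeq2 and limma on log2(FPKM + 1) also called 0 members. At an unadjusted p under 0.05 there was 1 member, Mybpc2, against 4.75% of all genes, and it also reached the study's threshold of 0.58 for the absolute log2 fold change, which 2.09% of all genes passed. DESeq2 gave 4 members and limma 2 at an unadjusted p under 0.05, against 5.33% and 4.26% of all genes. Leaving out WT1, WT2, S8, S9, S10, S11 or TKO5 raised the number past the study's thresholds to between 2 and 4, where 1.67% to 3.36% of all genes passed them. The estimates were positive for 24 members and negative for 12, with a median log2 fold change of 0.07 against -0.01 over all genes. Without S10 the median was 0.02 and without WT1 it was 0.14. All 3 tested adipocyte genes had negative changes at an unadjusted p under 0.05, with a median of -4.09, and 1 of 5 endothelial genes had a positive one. The adipocyte genes stood out in 1 WT library. S7 held 112, 89.3 and 478 CPM of Adipoq, Plin1 and Cfd. The other libraries labelled male held at most 2.82, 3.01 and 25.0 CPM.

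Mybpc2 was at 9.26 and 10.4 CPM in WT1 and WT2 and at 4.86, 4.73 and 3.62 CPM in S7 to S9. The male KO libraries had 9.53, 7.29 and 12.4 CPM in S10 to S12 and 11.4 and 13.7 CPM in TKO5 and TKO6. Within each series the KO libraries were above the WT libraries, and across series they overlapped. The log2 fold change was 0.80 ± 0.21 (standard error, as for all changes given below) with adjusted p = 0.882. It was 1.14 in the S series alone and 0.34 in the WT/TKO series alone. Without S7, S8 and S9, whose sex-linked genes went against their label, it was also 0.34. These are the only male WT libraries of the S series. Without them the genotype term rests on the WT/TKO libraries, so this is the same contrast and no separate check. At this level the gene rests on few reads, and its exons overlap those of a predicted gene on the opposite strand, so the 2 could share counts.

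Xirp2, a Xin repeat protein that binds actin near the Z-disc, was at 282, 219, 233, 175 and 318 CPM in WT1, WT2, S7, S8 and S9. In the male KO libraries S10, S11, S12, TKO5 and TKO6 it was at 265, 513, 453, 245 and 307 CPM. The groups overlapped, and the 2 highest values were in S11 and S12, whose atrial level was also high. The log2 fold change was 0.50 ± 0.23 (adjusted p = 0.882), with 0.76 in the S series alone and 0.12 in the WT/TKO series alone. The fit without S7, S8 and S9, which rests on the same contrast as the WT/TKO series alone, also gave 0.12.

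Among estimates below 0, Tmod1 had 171, 61.7, 162, 126 and 49.4 CPM in WT1, WT2, S7, S8 and S9 and 89.0, 71.2, 63.5, 92.1 and 60.0 CPM in the KO libraries in the order just given. Its log2 fold change was -0.62 ± 0.33 (adjusted p = 0.882), with groups that overlapped, and -0.33 without WT1. Of the 3946 exon bases of Tmod1, 1287 overlap exons of Tstd2 on the opposite strand, so these genes could share counts. Nebl, encoding nebulette, a Z-disc protein that binds thin filaments, was at 232, 139, 229.7, 156 and 122 CPM in the same WT libraries and 146, 137, 149, 149.7 and 133 CPM in the same KO libraries. Its change was -0.32 ± 0.19 (adjusted p = 0.882), WT1 and S7 stood above the rest, and without WT1 it was -0.16.

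In hearts labelled male, the estimate for Ttn was 0.10 ± 0.11 with a 95% interval of -0.13 to 0.34, from the t distribution of the fit, and that for Tnnt2 was -0.02 ± 0.13 with -0.30 to 0.26. Mybpc3 had 0.09 ± 0.18 and an interval of -0.29 to 0.48. The light chains had wider errors, with 0.26 ± 0.24 for Myl2 and 0.25 ± 0.24 for Myl3. S7 held 2884 CPM of Myl2 and 2434 CPM of Myl3 against at least 5436 and 3682 CPM in the other 9 libraries, and without S7 the estimates were 0.10 for Myl2 and 0.10 for Myl3. Tcap was the 1 member whose groups did not overlap, all KO libraries being higher, as for 0.359% of all genes. It was at 2491, 2749, 754, 2883 and 2810.2 CPM in WT1, WT2, S7, S8 and S9 and at 4005, 3466, 3535, 2918 and 3726 CPM in the KO libraries. Its log2 fold change was 0.58 ± 0.30 with adjusted p = 0.882, and without S7, again the lowest library, it was 0.35.

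In the libraries labelled female no member had an adjusted p under 0.05 with edgeR, as for 0.0551% of 14511 genes. DESeq2 called 4 members where it called 2.64% of all genes, and limma called 0. Without S1 edgeR called 11 members (30.6%) and 16.8% of all genes, and without TKO2 1 member and 0.0900% of all genes. At an unadjusted p under 0.05 there were 10 members with a positive change (7.15% of all genes) and 1 with a negative change (10.7%), 11 of 36 against 17.9% of all genes. Of these, 5 with a positive (2.85% of all genes) and 1 with a negative change (7.15%) passed the study's thresholds, against 9.99% of all genes, and 13 passed them without S1, against 20.6% of all genes. The estimates were positive for 29 members and negative for 7, and the median was 0.23 against -0.02 over all genes, or 0.14 without S6 and 0.33 without S1. Of 7 tested atrial genes 6 had positive changes too, 3 of them at an unadjusted p under 0.05, and S5 and S6 had atrial levels of 4.47 and 4.63 against 2.17 to 2.61 in S1 to S3. The 1 tested adipocyte gene (2.72) was also higher at that level. So were 1 of 3 smooth muscle, 1 of 5 macrophage and 1 of 6 cardiomyocyte genes. All 5 tested skeletal muscle genes were negative, 1 of them at that level. The part of these genes was not tested. With the atrial level as covariate 7 members (19.4%) had an unadjusted p under 0.05 against 8.25% of all genes, and the median was 0.19. All WT libraries with this label were of the S series, so with the series term in the fit the estimate sets S1, S2 and S3 beside S4, S5 and S6, whose sex-linked genes differ as well.

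Mybpc2 was at 6.80, 6.26 and 6.33 CPM in S1 to S3. In the 7 female KO libraries it ran from 11.6 to 21.3 CPM with a median of 15.7 CPM, and the groups did not overlap. The log2 fold change was 1.29 ± 0.23 (adjusted p = 0.0687), and DESeq2 gave an adjusted p of 1.78e-04. Trim63, which encodes MuRF1, the ubiquitin ligase that marks sarcomere proteins for breakdown, was at 147, 94.3 and 50.9 CPM in S1 to S3 and ran from 129.7 to 319 CPM, median 238 CPM, in the KO libraries. Its change was 1.42 ± 0.35 (adjusted p = 0.141 with edgeR and 0.00896 with DESeq2), and only TKO4 of the KO libraries fell within the range of S1 to S3.

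The largest negative estimate was that of Myh7b, at 32.4, 125 and 76.2 CPM in S1 to S3 and 28.9 to 79.5 CPM (median 45.7 CPM) in the KO libraries. S2 was above the KO range, and S1 and S3 lay within it. The log2 fold change was -1.20 ± 0.37 (adjusted p = 0.172), or -0.68 without S2 and -0.60 with no series term. Myh7b was called lower with DESeq2 and with no filter on low counts. Without S1, edgeR gave -1.57 (adjusted p = 0.00380). Ttn was at 2222, 2994 and 2879 CPM in S1 to S3 and at 2314, 2101 and 1916 CPM in S4 to S6, but at 3411, 4084, 3067 and 2959 CPM in TKO1 to TKO4. Its change was -0.36 ± 0.17 (adjusted p = 0.288) with the series term and 0.070 without it, so its direction here depends on how the series are treated.

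Beside Mybpc2 and Trim63, 8 members had a positive change at an unadjusted p under 0.05. They were 4 of the 13 Z-disc genes, Myot (myotilin, 1.17), Nexn (0.53), Pdlim3 (0.50) and Pdlim5 (0.37), and 2 of the 5 genes of the intermediate filament, filamin and Xin list, Des (desmin, the muscle intermediate filament, 0.34) and Xirp2 (0.60). Lmod2 (leiomodin 2, which lengthens thin filaments, 0.82) and Mylk3 (the cardiac myosin light chain kinase, 0.51) were the others, and the adjusted p of the 8 ran from 0.152 to 0.276. All KO libraries lay above all 3 WT libraries for 5 members, Mybpc3, Mybpc2, Mylk3, Myot and Des, as they did for 2.63% of all genes. For Myot the WT libraries had 37.1, 20.3 and 14.6 CPM and the lowest KO library had 38.7 CPM. Mybpc3 is also a member that differed between the series, and with the series term its change was 0.23 ± 0.17 (interval -0.14 to 0.60). Tnnt2 changed by 0.05 ± 0.15 (interval -0.27 to 0.37), Myl2 by -0.21 ± 0.16 (-0.56 to 0.13) and Myl3 by 0.17 ± 0.13 (-0.11 to 0.46).

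**Figure D2:**
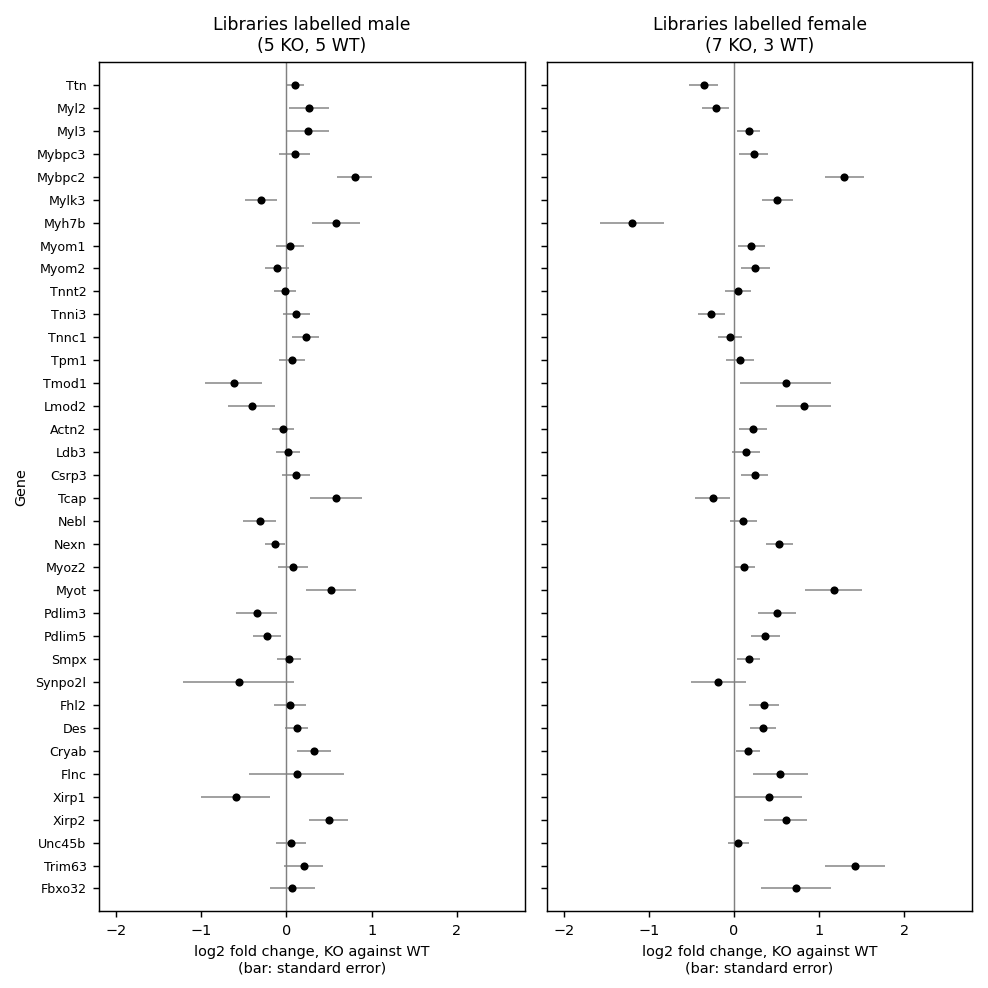
Genotype effects of the 36 members. Points are log2 fold changes of KO against WT for male labels (left) and female labels (right), bars are standard errors, and the vertical line marks 0. Mybpc2 lies right of 0 in both panels at 0.80 and 1.29, and Myh7b lies at 0.58 on the left and -1.20 on the right.

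With all 20 libraries in 1 fit, adjusted for series and labelled sex, 28 members had positive and 8 had negative genotype estimates. That is 77.8% positive, against 47.1% of all genes. No member was called by edgeR, as for 0% of 15187 genes, while 6 had an unadjusted p under 0.05 against 4.93% of all genes. Mybpc2 was closest, with a log2 fold change of 0.90 ± 0.17 (adjusted p = 0.121), and DESeq2 called it with 0.89 (adjusted p = 0.00135), as its only member among 0.0790% of all genes, while limma called 0. In the S series alone Mybpc2 changed by 1.22 with an adjusted p of 0.00711, where genotype label and sex-linked genes coincide, and by 0.60 (adjusted p = 0.369) without the 6 libraries whose sex-linked genes went against their labels. The other 5 were Myot (0.76 ± 0.23), Trim63 (0.64 ± 0.25), Xirp2 (0.59 ± 0.17), Cryab (0.27 ± 0.12) and Des (0.22 ± 0.09), with adjusted p from 0.743 to 0.996. The most negative estimates by p were Nebl (-0.11 ± 0.13) and Myh7b (-0.16 ± 0.29), both with adjusted p = 0.996. Nebl was at -0.02 without WT1, and Myh7b turned to 0.14 without S2. The male and female comparisons share no library, and this fit combines them.

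Whether genotype effects differed between the labelled sexes was tested by an interaction term. No member was called with edgeR, as for 0% of genes, and 9 had an unadjusted p under 0.05 against 15.6% of all genes. DESeq2 also called 0, with 11 at an unadjusted p under 0.05 against 16.7% of all genes. The female minus male difference was 0.79 ± 0.26 for Mylk3 (adjusted p = 0.226) and 1.19 ± 0.40 for Pdlim3, a PDZ-LIM protein that binds α-actinin (0.226). It was -1.73 ± 0.48 for Myh7b (0.222) and -0.96 ± 0.39 for Tcap (0.265). Without S1, 4 members (11.1%) and 7.45% of all genes were called, among the members Mylk3 at 0.98 and Myh7b at -2.10, and without the 6 libraries of discordant sex-linked genes Myh7b was at -1.05. The atrial level moved with this contrast too: all 9 atrial genes had a positive difference, 4 of them at an unadjusted p under 0.05. So did all 3 tested adipocyte genes, each at an unadjusted p under 0.05 with a median of 7.10, while 2 of 5 endothelial genes were negative at that level. The adipocyte genes were far higher in S7, labelled male WT, than in any other library. The part of the atrial, adipocyte and endothelial genes in the members' differences was not tested.

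More members were called between the library series than for genotype. Between the WT/TKO and S series 8 of 36 members were called (22.2%) against 16.4% of 15187 genes, 6 of them higher in WT/TKO (7.53% of all genes) and 2 lower (8.91%). DESeq2 called 10 members and 20.7% of all genes, and limma 7 and 16.2%. Without WT1, S11 or TKO2 edgeR called 4 members, with 10.8% to 12% of all genes, and without WT2 it called 5, with 11.4%. The higher ones were Ttn, the thick filament genes Mybpc3 and Mybpc2, the M-band gene Myom1 (myomesin 1), the thin filament gene Lmod2 and the ubiquitin ligase gene Fbxo32 (atrogin-1). The lower ones were Csrp3 (muscle LIM protein) and Smpx (a small muscle protein), both of the Z-disc list. What distinguishes the series besides their names is not given in the sources used here.

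Mybpc3 gave the clearest separation. Its level in the S series ran from 1429.8 to 2259 CPM with a median of 1767 CPM, and in the WT/TKO series from 2392 to 3903 CPM with a median of 2643 CPM. All 8 WT/TKO libraries were above all 12 S libraries, the only member of the 36 for which the series did not overlap, as for 0.362% of all genes in this direction. The log2 difference was 0.58 ± 0.11 (adjusted p = 0.00191), and 0.54 among KO libraries alone (adjusted p = 0.0187). It was called in each of the 20 fits that left out 1 library.

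Ttn ran from 1916 to 2994 CPM in the S series (median 2162 CPM) and from 2684 to 4084 CPM in the WT/TKO series (median 2942 CPM). The KO libraries had 1916 to 2314 CPM in S and 2802 to 4084 CPM in WT/TKO, while S2 and S3 lay among the WT/TKO values. The share of all genes whose KO libraries separate in this way was not computed. The difference was 0.46 ± 0.09 (adjusted p = 0.00296).

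Fbxo32 had 52.4 to 271 CPM (median 108 CPM) in the S series and 120.3 to 372 CPM (median 226 CPM) in WT/TKO, a difference of 0.93 ± 0.24 (adjusted p = 0.0135). Its exons overlap a predicted gene on the opposite strand. Lmod2 had 338 to 1099 CPM (median 599 CPM) in S and 667 to 1839 CPM (median 1153 CPM) in WT/TKO, a difference of 0.81 ± 0.24 (adjusted p = 0.0261). For both, the series overlapped. Lmod2 had an adjusted p of 0.052 to 0.084 when WT1, S11, S12 or TKO2 was left out.

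Smaller differences were those of Myom1, at 0.36 ± 0.10 (adjusted p = 0.0233), and Mybpc2, at 0.47 ± 0.16 (adjusted p = 0.0465). Myom1 ran from 731 to 1117 CPM in S and 1081 to 1459 CPM in WT/TKO. Mybpc2 ran from 3.62 to 19.3 CPM in S and 9.26 to 21.3 CPM in WT/TKO, and among KO libraries alone the difference was 0.14 (adjusted p = 0.627). In the other direction, Csrp3 had 1499 to 2917 CPM in S and 1379 to 2299.5 CPM in WT/TKO, a difference of -0.36 ± 0.10 (adjusted p = 0.0233). Smpx had 245 to 478 CPM and 241 to 301 CPM, a difference of -0.29 ± 0.09 (adjusted p = 0.0410). Smpx was called in 10 and Mybpc2 in 7 of the 20 fits that left out 1 library.

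**Figure D3:**
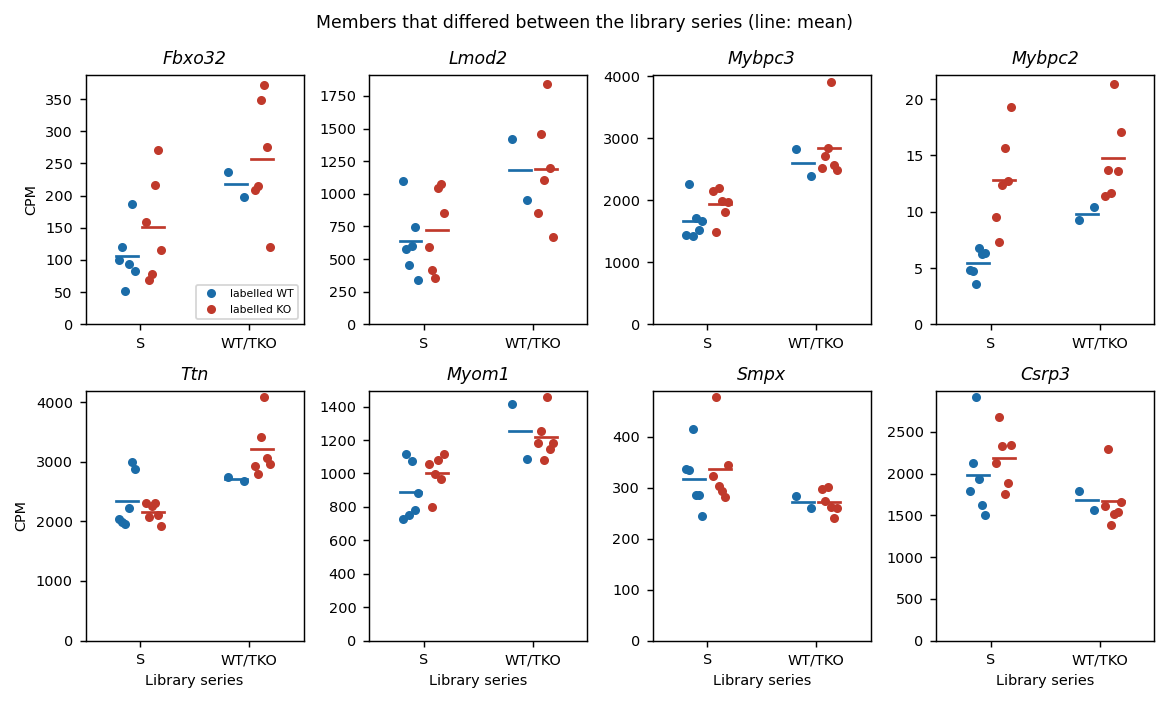
CPM of the 8 members called between the library series, with the 12 S libraries left and the 8 WT/TKO libraries right in each panel. Points are libraries, blue labelled WT and red labelled KO, and short lines are means. The WT/TKO points of Mybpc3 lie wholly above the S points, while those of the other 7 genes overlap.

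Several measures moved with the series beside these genes. Of the 9 atrial genes 8 were called lower in WT/TKO, as were 3 of 3 tested adipocyte, 4 of 5 macrophage, 1 of 5 endothelial, 1 of 3 smooth muscle and 1 of 5 red blood cell genes. Of 6 cardiomyocyte markers that are no members 2 were called higher, and 0 of the tested genes were called among 7 of skeletal muscle, 5 of fibroblasts and 4 of mesothelium. The summed atrial genes ran from 50.2 to 8283 CPM in S and from 66.9 to 95.8 CPM in WT/TKO. With the atrial level as covariate 0 members and 4.33% of all genes were called by edgeR, and 5 members (13.9%) had an unadjusted p under 0.05 against 21% of all genes. The differences of the 8 members were then 0.43 for Ttn (adjusted p = 0.0562), 0.41 for Mybpc3 (0.0912), 0.87 for Lmod2 (0.129), 0.58 for Fbxo32 (0.293), 0.32 for Mybpc2 (0.430), 0.14 for Myom1 (0.550), -0.27 for Csrp3 (0.266) and -0.14 for Smpx (0.528). Among KO libraries alone 3 members (8.33%) were called against 11.1% of all genes, Ttn, Mybpc3 and Myh7b (0.75, 0.0428), of which Myh7b is not among the 8. Without the 6 libraries whose sex-linked genes went against their labels, 12 members (33.3%) were called against 18.7% of all genes, 7 of the 8 among them, with Mybpc3 at 0.58 and Lmod2 at 1.25. The transcript models of the 6 members called higher had a median of 5570 bases and those of the 2 called lower 2473 bases, and the same order held over all genes, with 6084 bases for genes called higher, 2734 for genes called lower and 4145 for all tested. The part of transcript length in these differences was not tested.

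The atrial level was then used as a continuous measure, with series, labelled sex and genotype as covariates, and slopes are log2 changes for each doubling of the atrial genes. Of the 36 members 6 were called (16.7%) against 7.39% of 15187 genes, 3 rising (5.54% of all genes) and 3 falling (1.86%), and DESeq2 and limma each called 7, with 9.76% and 9.57% of all genes. The rising ones were the Z-disc genes Synpo2l and Pdlim3 and the filamin gene Flnc. The falling ones were the ventricular light chain genes Myl2 and Myl3 and Myoz2 (calsarcin-1, which ties calcineurin to the Z-disc). Without S7, 3 members were called, Synpo2l, Flnc and Pdlim3, and 2.08% of all genes. Without the 6 libraries whose sex-linked genes went against their labels, S7 and S9 among them, 0 members and 0.149% of all genes were called by edgeR, and 8 members (22.2%) had an unadjusted p under 0.05 against 7.73% of all genes.

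Synpo2l had the steepest slope, 0.50 ± 0.07 (adjusted p = 1.14e-04). It was at 465, 495, 304 and 147 CPM in S7, S9, S11 and S12, the 4 libraries of highest atrial level, and at 46.1, 59.2 and 84.9 CPM in S10, S5 and S6. The other S libraries ran from 29.4 CPM in S8 to 117 CPM in S1, and the WT/TKO libraries from 36.6 to 68.1 CPM. The 4 libraries of highest atrial level were therefore above all others. In the S series alone the slope was 0.57 (adjusted p = 0.0186), the 1 member called there, and without S7 it was 0.51.

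Flnc was at 754, 1483, 2048 and 461 CPM in the same 4 libraries, with the other S libraries between 143 and 379 CPM and the WT/TKO libraries between 181 and 394 CPM. The slope was 0.39 ± 0.07 (adjusted p = 0.00256), and 0.38 in the S series alone (adjusted p = 0.134). Pdlim3 was at 136, 137, 85.4 and 103 CPM in the 4 libraries and at 28.9 to 74.9 CPM in the other S libraries. The WT/TKO libraries held 38.6 to 64.9 CPM of Pdlim3, and its slope was 0.20 ± 0.04 (adjusted p = 0.00538). All 3 genes were higher in the 4 libraries of highest atrial level than in each of the other 16, as were 2.63% of all genes. Xirp1, the nearest gene outside the calls, had a slope of 0.22 ± 0.07 (adjusted p = 0.0586) and 984, 906, 781 and 278 CPM in these 4 libraries.

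Myl3 fell to 2434 CPM in S7, 4244 CPM in S9, 3682 CPM in S11 and 5468 CPM in S12, against 5476 to 6781 CPM in the other S libraries and 5596 to 7798 CPM in WT/TKO. The slope was -0.15 ± 0.03 (adjusted p = 0.00494), and -0.11 without S7 (adjusted p = 0.0698). Myl2 was at 2884, 5822, 5436 and 7485 CPM in the 4 libraries, at 5927 to 9449 CPM in the other S libraries and at 7170.2 to 10602 CPM in WT/TKO. Its slope was -0.13 ± 0.04 (adjusted p = 0.0385), and -0.07 without S7 (adjusted p = 0.302). It was called in 11 of the 20 fits that left out 1 library, against 19 for Myl3 and 18 for Myoz2, and was not called with limma or upper-quartile scaling. Myoz2 was at 747, 1074, 1047 and 1028 CPM in the 4 libraries and between 1097 and 1379.8 CPM in WT/TKO, with a slope of -0.09 ± 0.02 (adjusted p = 0.0231) and of -0.06 without S7 (0.212). For the 3 genes the values of S7 were the lowest of all 20 libraries.

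**Figure D4:**
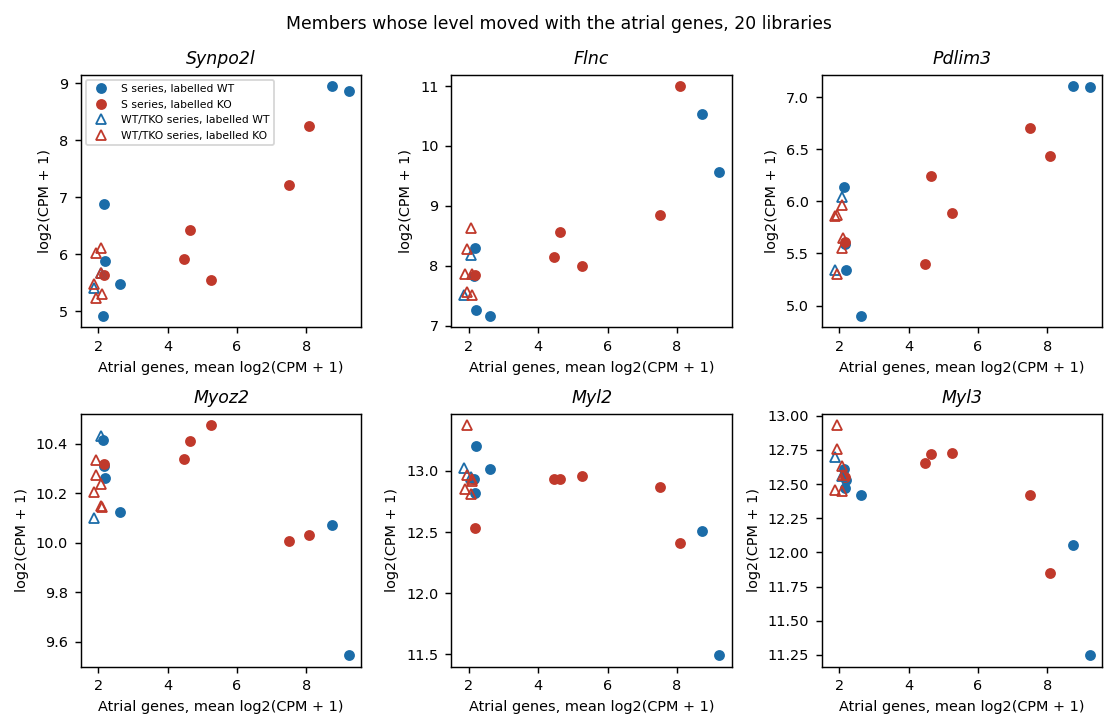
Levels of the 6 members called for atrial level, as log2(CPM + 1), against the mean log2(CPM + 1) of 9 atrial genes in each of 20 libraries. Filled circles are S libraries and open triangles WT/TKO libraries, blue labelled WT and red labelled KO. Synpo2l, Flnc and Pdlim3 rise toward the right, where S7 lies furthest at 9.22, and Myl2, Myl3 and Myoz2 fall, while all WT/TKO libraries sit near 2.

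Slopes on the atrial level were negative for 22 of the 36 members, 5 of the 6 thick filament genes among them, and positive for 14. That is 38.9% positive, against 49.5% of all genes. Ttn had a slope of -0.01 ± 0.03, Tnnt2 of -0.01 ± 0.02, Actn2 of -0.01 ± 0.03 and Des of -0.00 ± 0.02, with standard errors of at most 0.03 and adjusted p of at least 0.792. Mybpc3 had -0.06 ± 0.03 (adjusted p = 0.294), Tpm1 -0.08 ± 0.03 (0.0867) and Myom1 -0.07 ± 0.03 (0.0993). Tcap had -0.14 ± 0.06 (0.185), with 754 CPM in S7 against at least 1950.5 CPM in every other library. Other cell types moved with the atrial level too: 3 of 3 tested adipocyte, 3 of 4 mesothelial, 2 of 5 fibroblast, 2 of 7 skeletal muscle and 1 of 5 endothelial genes were called with positive slopes. Of the 6 cardiomyocyte markers 2 were called with negative slopes, and 0 smooth muscle, macrophage and red blood cell genes were called. Their part in the members' slopes was not tested.

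Of 26 other sarcomere genes that are no members, 6 (23.1%) were called with a positive slope on the atrial level and 0 with a negative one. Of all genes 5.54% were called rising and 1.86% falling. They included Ankrd1 (a stretch-responsive titin-binding protein, 0.53 ± 0.07, adjusted p = 1.35e-04), Tnni1 (slow skeletal troponin I, 0.56 ± 0.10, 0.00218) and Ankrd2 (0.43 ± 0.11, 0.0224). Between the series, Dmd (dystrophin, 0.58 ± 0.11, adjusted p = 0.00213) and Lmod3 (0.51 ± 0.15, 0.0217) were higher in WT/TKO, and Ankrd2 (-2.09 ± 0.55), Ankrd1 (-1.62 ± 0.53) and Tpm2 (β-tropomyosin, -1.09 ± 0.28) were lower. These calls were 19.2% of the list, against 16.4% of all genes. For genotype 0 genes of the list were called in either labelled sex by edgeR, with 2 at an unadjusted p under 0.05 for male and 9 for female labels. That is 7.69% and 39.1% of the tested genes of this list, against 4.75% and 17.9% of all genes. Acta1, the skeletal muscle α-actin, had the smallest p of the list for both labels, and it is named here after its values were seen. It was at 82.9, 286, 94.7, 119 and 202 CPM in WT1, WT2, S7, S8 and S9 and at 343 to 527 CPM in the male KO libraries, and at 109, 94.0 and 209 CPM in S1 to S3 and 292 to 1053 CPM in the female KO libraries. The KO libraries were above the WT libraries of the same label in both. Its log2 fold change was 1.55 ± 0.31 for male labels (adjusted p = 0.882), 2.29 ± 0.38 for female labels (0.0528) and 1.71 ± 0.28 over all libraries (0.0758).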

How the data were processed

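Heart libraries were grouped by their genotype and gender labels, and all of them were kept in the groups their labels give. The authors deposited 1 table with raw read counts per gene and library, and with FPKM that they computed from those counts, a gene length and the library total. The submitters' processing notes name HISAT2, HTSeq 0.6.1p2, DESeq2 1.26.0 and the genome build GRCm38 for the deposited values, without settings, so whether counting used strand is not given in the sources used here. The lengths behind the FPKM of all 36 members matched GENCODE mouse release 21, whose gene models were used for exon overlaps. Total counts ran from 12540002 to 20038593 per library, and values of low members such as Mybpc2 are limited by counting error and by the number of hearts. No 2 libraries of a group held the same values.

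Counts were scaled by TMM and tested with edgeR 4.0.16 (quasi-likelihood test, R 4.3.3) over the genes that reached 10 counts in 3 or more of the libraries fitted, with Benjamini-Hochberg adjustment over all genes tested. A member was called at an adjusted p under 0.05, and was also counted at the thresholds of the study, an unadjusted p under 0.05 and a log2 fold change of 0.58 or more in either direction. KO and WT were compared separately for male and for female labels, adjusting for library series. Genotype over all libraries, genotype by sex, the library series and the slope on the atrial level were fitted to all 20 libraries. The atrial level is the mean log2(CPM + 1) of Myl7, Myl4, Sln, Nppa, Mybphl, Bmp10, Dkk3, Stard10 and Kcnj3. The labels do not say which libraries share a litter or a day, and p-values measure the spread between these libraries.

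Members named with full values were the called ones, up to 4 with the largest change in each direction, or where none was called the 2 of smallest p in each direction, beside Ttn, Myl2, Myl3, Mybpc3 and Tnnt2. Other members are named by level, spread or unadjusted p, chosen after their values were seen. The members and all lists were chosen with earlier results of these data known. Alternatives were DESeq2 1.42.0, limma 3.58.1 on log2(FPKM + 1), upper-quartile scaling, no filter on low counts, no series covariate, each series alone, the atrial or Y-linked level as covariate, KO libraries alone, Myl7 alone or the atrial list without Bmp10 and Nppa, and omission of single libraries. The fits without the 6 libraries whose sex-linked genes went against their labels were added after the data were seen. Promoter windows came from RefSeq tables of GRCm38.p6, searched with Python 3.11.15, and plots were drawn with matplotlib 3.10.9. Protein blots and qPCR were not analysed here.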

Additional observations from a re-analysis of the deposited data

Results flagged for a closer look

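Within the 3 labelled groups of 4 to 10 libraries, the highest or lowest value of a member stood far from the others, by Dixon's test, in 11 of 108 sets of values. For independent, normally distributed values the test flags about 1 of 20 groups. The members share libraries, and the share flagged over all genes was not computed. The count therefore does not show an excess in these genes.

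S7 was low in 3 members among the libraries labelled male WT: Tcap had 754 CPM against 2491 to 2883 CPM in the other 4, Tnnc1 had 1200.1 CPM against 1946 to 2242 CPM, and Trim63 had 105 CPM against 194 to 228 CPM. S7 also had the highest atrial level of all libraries and the smallest share of counts on the 36 genes. Cryab was high in S9 at 2181 CPM, against 1251 to 1462 CPM in the other libraries labelled male WT.

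S11 was high among the libraries labelled male KO in 3 members. Flnc had 2048 CPM against 188 to 461 CPM, Cryab had 2958 CPM against 1517 to 1797 CPM, and Smpx had 478 CPM against 273 to 323 CPM.

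Among the libraries labelled female KO, TKO2 was high in Tmod1 (186 CPM against 76.8 to 117 CPM), Myom2 (1269.7 CPM against 766 to 949.6 CPM) and Actn2 (2322 CPM against 1721 to 1961 CPM). S4 was low in Myl2, with 5927 CPM against 7170.2 to 7824 CPM in the other 6.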

How the results depend on the processing

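No member was called for genotype by edgeR in the libraries labelled male under any alternative. The number past the study's thresholds there, 1 as reported, was 3 with DESeq2 (2.28% of all genes), 5 with no filter on low counts (3.13%), 3 in the S series alone (2.68%), 3 with the atrial level as covariate (2.57%), and 0 with limma, in the WT/TKO series alone, with the Y-linked level as covariate, or without the 6 libraries whose sex-linked genes went against their labels. Without those 6 libraries the male estimate rests on the WT/TKO series, so that fit and the WT/TKO series alone are the same contrast. The number past the study's thresholds for male labels ran from 1 to 4 when 1 library was left out (1.43% to 3.36%). In the libraries labelled female, DESeq2 called 4 members (2.64% of all genes), the fit with no count filter called 9 (4.06%), and edgeR called 0 to 11 with 1 library left out (16.8% of all genes at the highest). The number past the study's thresholds there, 6 as reported, was 0 with the Y-linked level as covariate, which in the S series coincides with genotype, and 4 to 13 with 1 library left out (4.45% to 20.6% of all genes). For genotype over all libraries 1 member was called with DESeq2 (0.0790% of all genes), 1 with no filter on low counts (0.0102%) and 1 in the S series alone (0.0609%), and 0 with any 1 library left out. The number past the study's thresholds there was 4, where 133 of 15187 genes passed them upwards and 161 downwards, and 2 to 5 with 1 library left out (1.55% to 2.57% of all genes). For genotype by sex 1 was called with no filter on low counts (0.440%), and 0 to 4 with 1 library left out (0% to 7.45%). Between the series, 3 members were called among KO libraries alone, 2 of them among the 8 called as reported, and 0 with the atrial level as covariate, with 4 to 9 calls when 1 library was left out (10.8% to 20.7% of all genes). For the atrial level, 1 member was called in the S series alone (0.555% of all genes), 0 in the WT/TKO series alone (0%), 3 with Myl7 alone as the atrial level (2.37%), 4 with the atrial list without Bmp10 and Nppa (5.13%) and 0 without the 6 libraries named above, and 3 to 7 with 1 library left out (2.08% to 8.26%). Ttn turned from -0.36 to 0.070 in the libraries labelled female with no series covariate. Myh7b over all libraries ran from -0.26 to 0.14 with 1 library left out, the positive value being without S2. The slopes of Myl3 and Myoz2 turned to 0.021 and 0.54 in the WT/TKO series alone, where the atrial level spans 1.86 to 2.10 and the standard errors were 0.64 each. The causes of these changes were not tested. No paired analysis was possible because the numbers in the library names run on through the groups and name no shared animal, litter or day. Depth, the number of hearts and the confounding of genotype label with sex-linked genes in the S series limit the genotype comparisons.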
